A study of Caenorhabditis elegans with 3 samples.

Results

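The 10 genes of vulval induction and patterning described here in the BED-3 ChIP-seq peak lists of Caenorhabditis elegans embryos were lin-3, let-23, lin-1, lin-31, lin-11, cog-1, egl-38, ceh-2, nhr-67 and egl-17. They were chosen by name, with earlier results of these data known, and make up 10 of 19973 protein-coding genes on the nuclear chromosomes. The window of a gene ran from 5000 bp upstream of its first annotated 5′ end to its 3′ end on WBcel235, the ce11 assembly, and a peak was assigned to every window that held its summit. The summit is the base of highest signal that the authors recorded for each peak. The 10 windows covered 125.412 kb.

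The study has a single group, BED-3 GFP ChIP, with biological replicates 1, 3 and 4. The worms were of strain OP651, in which the transgene wgIs651 carries bed-3::TY1::EGFP::3xFLAG with unc-119(+) in an unc-119(tm4063) background. All replicates therefore share 1 tagged line, the unc-119 rescue and the anti-GFP antibody, and each pooled males and females. The material was whole embryos of mixed stage, obtained by bleaching and labelled 4 hours, with sonicated chromatin of 200 to 800 bp. Peak lists of all cells together cannot tell a site occupied in few cells from a weaker site in many. No untagged or untreated peak list was analysed here, so the peaks below are positions in the authors' lists and are not shown to be BED-3 binding. The lists hold no expression values against which the embryonic label could be checked.

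The vulva is the egg-laying opening of the hermaphrodite. It forms in larvae, when the anchor cell of the gonad secretes LIN-3, an EGF-type ligand, that acts on the receptor LET-23 in the vulval precursor cells. The signal passes through Ras and MAP kinase to the nuclear factors LIN-1 and LIN-31, and a later set of transcription factors gives the descendant cells their separate identities. BED-3 is a BED-type zinc-finger protein that is required for normal cell divisions in the vulval lineages. The vulval precursors divide only after hatching, so the embryos measured here held no vulva.

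The authors' optimal list, which the file listing derives from the replicate 3, replicate 4 and pooled lists, held 589 peaks. The pooled list held 30000, and the lists of replicates 1, 3 and 4 held 26338, 29455 and 30000. The long lists reach far down into weak signal, and ranks are therefore given with rank 1 as the highest signal of a list. Signal values are the authors' own and are comparable only within a list. The pooled list contains reads of replicates that also have their own lists, so a match between it and a replicate is not an independent repeat.

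The 10 windows held 46 pooled summits, or 0.367 per kb, against 0.299 per kb over the nuclear genome. Replicate 3 had 49 summits there, or 0.391 per kb, against 0.294 per kb over the genome. The other replicates were closer to their genome-wide densities. Replicate 1 had 34 summits, 0.271 per kb against 0.262 per kb, and replicate 4 had 38 summits, 0.303 per kb against 0.299 per kb. All but let-23, 9 of the 10 genes, had at least 1 pooled summit, where 70.3% of all coding genes did. Each replicate also had summits at 9 of the 10, where 79.9, 81.9 and 72.9% of all coding genes had one in replicates 1, 3 and 4. Having a pooled summit is thus the common state of a coding gene, and it does not set these genes apart. The pooled summits were also not placed high in their list, with a median rank of 17111 in the 10 windows and 15010.5 over all nuclear summits, and 18 of the 46 were in the stronger part of the list above its median signal.

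Only egl-17 and ceh-2 had a summit in the optimal list, and they had 1 each. Windows with an optimal summit made up 5.01% of all coding genes and 6.72% of those whose window length lay within the range of the 10. Both optimal summits lay on a tRNA gene. Of all nuclear optimal summits, 45.3% lay within 200 bp of a tRNA, snoRNA, snRNA or rRNA gene, as against 2.28% of the nuclear pooled summits. Leaving out summits that close to a small RNA gene leaves 0 of the 10 genes with an optimal summit, beside 3.21% of coding genes.

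**Figure D1:**
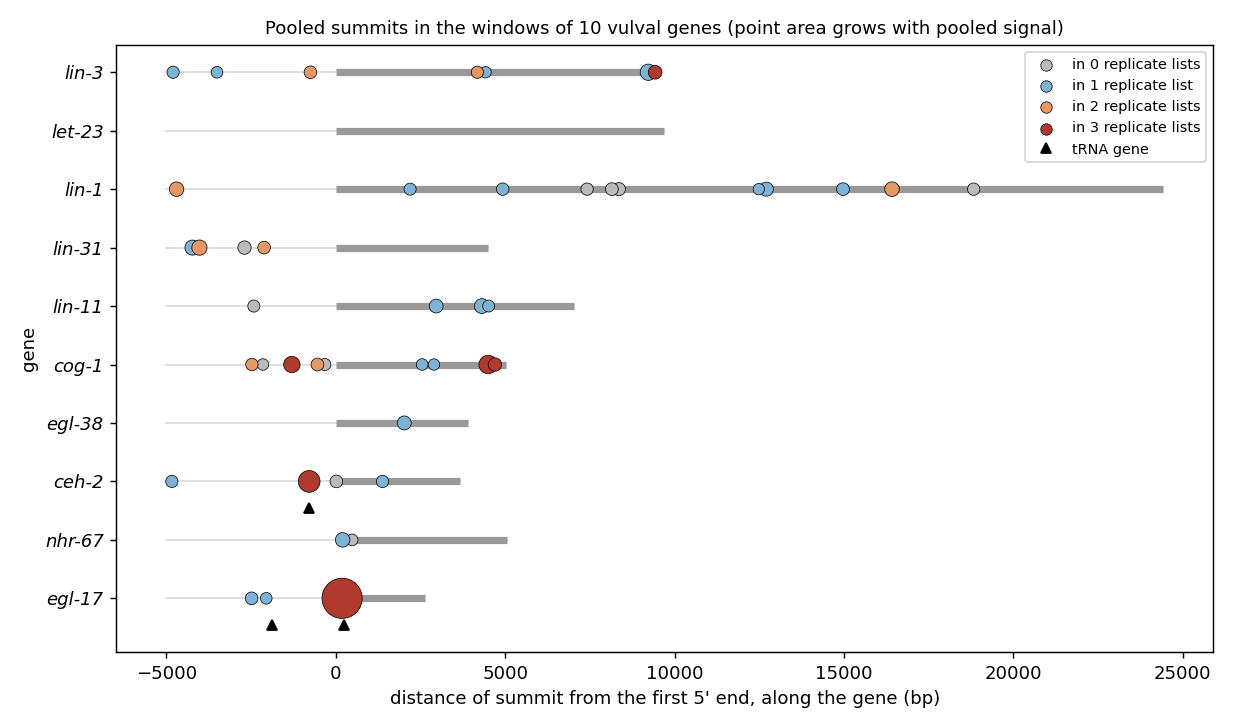
Each row is 1 gene window; the x axis is the distance in bp of each pooled summit from the first 5′ end, the grey bar is the gene, and colour gives the number of replicate lists with a summit within 100 bp. The 6 summits found in all 3 replicate lists lie at lin-3, cog-1, ceh-2 and egl-17, and the largest points, at egl-17 and ceh-2, stand over tRNA genes (triangles).

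The strongest peak of the set was in egl-17, which encodes an FGF-type secreted protein that attracts migrating sex myoblasts and whose expression is widely used as a vulval fate marker. The gene lies on X at 489685 to 492318, on the plus strand. The peak covered 489739 to 490076, and its summit was 190 bp inside the gene, in an intron, 29 bp past the end of a coding exon. It ranked 63 in the pooled list with a signal of 484, which placed it within the top 0.21% of that list. The replicate lists gave it ranks 116, 57 and 53 for replicates 1, 3 and 4, with signals of 92.8, 111 and 273 on the separate scales of those lists. The 3 replicate summits fell within 25 bp of each other. This was the only member peak near the head of every list, and it lies over another gene.

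That other gene is the tRNA-Asp gene F38G1.t2, encoded on the minus strand at X 489868 to 489939, and its 72 bp occur as 21 exact copies in the genome. Reads that lie wholly within such a copy cannot be placed by sequence alone, whereas reads that reach unique flanking sequence can be. Of the 32-base words within 50 bp of the summit, 47.1% were unique in the genome, with a median of 5 copies. An effect of read placement on this peak was not tested. The reference sequence of RefSeq on WBcel235 is shown here because it holds both the end of the egl-17 coding exon and the tRNA gene under the peak, with the tRNA gene in capitals on the plus strand.
egl-17 chrX:489800-489950, plus strand: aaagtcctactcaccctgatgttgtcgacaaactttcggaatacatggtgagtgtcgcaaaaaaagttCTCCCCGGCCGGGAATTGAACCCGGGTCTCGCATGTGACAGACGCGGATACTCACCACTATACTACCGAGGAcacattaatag
The other pooled summits of egl-17 were weak. Those at 2481 and 2049 bp upstream ranked 16981 and 26785, and the summit at 405 bp ranked 20051; each had a match in 1 replicate. The one 2049 bp upstream is within 200 bp of F38G1.t1, a tRNA-Thr gene with 9 exact copies, and its match in replicate 4 ranked 4549.

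The second optimal peak was upstream of ceh-2, an Emx-type homeobox gene that is expressed in a vulval cell type, at 6046788 to 6050451 on the minus strand of chromosome I. The peak covered 6051005 to 6051460, with the summit 782 bp upstream of the gene. It ranked 523 in the pooled list, with a signal of 133. The replicates placed it at very different ranks: 299 in replicate 1, 1169 in replicate 4 and 22417 in replicate 3. The replicate 3 peak had a signal of 12.9 and was in the weaker part of its list. The summit lay on the tRNA-Leu gene C27A12.t1, at 6051155 to 6051236, which has 7 exact copies in the genome, and within the non-coding gene C27A12.12. No other pooled summit of ceh-2 was found in more than 1 replicate. Replicate 4 also had a weaker peak at 928 bp upstream, rank 20872, that matched the replicate 3 peak. The pooled summit nearest to the ceh-2 5′ end, 21 bp inside its 5′ UTR, ranked 17051 and had no match in any replicate.

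The inducing ligand gene lin-3, at IV 11054308 to 11063768 on the plus strand, had 7 pooled summits, 5 in replicate 1, 11 in replicate 3 and 5 in replicate 4. Its strongest pooled peaks lay at the far 3′ end of the gene. The summit at 9227 bp had a signal of 69.1 and ranked 2607. Within 100 bp it was matched in replicate 3 alone, at rank 1069. Replicate 1 had its highest-signal lin-3 peak at 9120 bp, rank 2080, which matched that replicate 3 peak but lay just over 100 bp from the pooled summit. The next summit, at 9429 bp, was weaker, with a signal of 45.6 and rank 10146, but had a match in all 3 replicates, at ranks 13242, 3323 and 23692 in replicates 1, 3 and 4. This peak covered 11063509 to 11063964, and its replicate summits spanned 85 bp. Both summits are in the lin-3 3′ UTR and inside ttr-16, a transthyretin-like gene, whose 5′ end is also the nearest. The anchor-cell signal gene thus had a repeated peak at its border with a neighbour. At its upstream end, the summit 745 bp before the first 5′ end ranked 17822, and lay inside F36H1.12.

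The receptor gene let-23, at II 9197512 to 9207213 on the plus strand, had no summit in the optimal list, the pooled list or the lists of replicates 3 and 4. Replicate 1 listed 3 peaks. They were at 2697 and 559 bp upstream, ranks 25319 and 16997, and at 881 bp inside a coding exon, rank 6715. Windows without any pooled summit were 29.7% of all coding genes, but 7.81% of those whose window length was within 1 kb of the 14.702 kb of let-23. A missing summit says only that none was listed there.

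The ETS-type factor LIN-1, which holds back vulval fates until MAP kinase acts on it, is encoded by the longest window of the set, 29.426 kb around IV 2275861 to 2300286 on the minus strand. It had 11 pooled summits, of which 10 were intronic, and 4 in replicate 1, 11 in replicate 3 and 10 in replicate 4. The density in the pooled list, 0.374 per kb, was near the 0.367 per kb of all 10 windows. None of the 11 was found in all 3 replicates. The strongest, 16419 bp into the gene at IV 2283639 to 2284094, had a signal of 53.4, rank 6240, and matches at ranks 11515 and 13870 in replicates 3 and 4. The peak at 4696 bp upstream, rank 6692, lay inside mksr-2 and was matched in replicates 1 and 4, at ranks 19384 and 4657. Replicate 1 had its own strong intronic peak at 7261 bp, rank 1574, that no other list held within 100 bp.

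LIN-31, a forkhead-type factor that works together with LIN-1, is encoded at II 3982549 to 3987029 on the plus strand. All 4 pooled summits of its window were upstream and none was in the gene. Replicates 1, 3 and 4 had 5, 8 and 5 summits, and those of replicates 1 and 3 included intronic ones. The highest-signal replicate 1 peak of the window was intronic, 1585 bp into the gene, at rank 5413. In replicate 3 an intronic peak at 2654 bp ranked 7833. The strongest pooled summit was at 4021 bp upstream, II 3978300 to 3978755, with a signal of 59.0 and rank 4453, and matches at ranks 6208 and 2632 in replicates 1 and 3. A second, at 4226 bp upstream, ranked 4890 and was found in replicate 4 alone, at rank 4322. The 5′ end nearest to both summits was that of dos-2, not of lin-31. The replicates thus each placed a peak in this intergenic stretch, on neighbouring positions.

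Among the factors that give vulval descendants their identities, cog-1 had the densest set of summits. The gene encodes an Nkx6-type homeodomain protein and lies at II 14902493 to 14907533 on the plus strand. Its 9 pooled summits came to 0.896 per kb, a density above that of 97.8% of all coding gene windows, and it had 6, 5 and 9 summits in replicates 1, 3 and 4. Of the 9, 3 were found in every replicate, which no other of the 10 genes reached. None of the 9 lay within 200 bp of a small RNA gene. Some of these peaks overlap, and counting overlapping pooled peaks once left 5 summits, of which 2 were found in every replicate.

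The cog-1 peak of highest signal, 92.3 and rank 1051, covered II 14906766 to 14907221 with the summit 4501 bp into the gene, 17 bp before the last exon. Its ranks were 6956, 1552 and 3612 in replicates 1, 3 and 4. The replicate summits spanned 169 bp here, the widest of the 6 repeated peaks. An adjacent pooled summit at 4700 bp, in the 3′ UTR, had a signal of 43.0 and rank 11911. It matched the same replicate 3 peak, rank 1552, as the summit at 4501 bp, so the pair is not a pair of separate repeats in that replicate. Its matches in replicates 1 and 4 were separate peaks, at ranks 9568 and 17734.

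The cog-1 peak with the closest agreement between replicates was in its upstream region. It covered II 14900972 to 14901427, with the summit 1293 bp before the 5′ end, and cog-1 was the gene with the nearest 5′ end. The signal was 70.4, rank 2423, and the ranks were 11441, 12121 and 2624 in replicates 1, 3 and 4. The replicate summits lay within 18 bp of each other. This was the sole repeated summit among the 46 whose nearest annotated 5′ end was that of the member gene itself. The sequences within 50 bp of the upstream and of the strongest cog-1 summit are shown, from RefSeq on WBcel235, because they carry the highest pooled signals among the 4 repeated summits away from tRNA genes; the others, at lin-3 9429 bp and cog-1 4700 bp, are in 3′ UTRs. Of the 32-base words, 91.4% were unique in the genome in the upstream window and 100% in the other. Capitals mark the core of an Ets site, TTCCGG, in the upstream window and an E-box, CAGGTG, in the other.
cog-1 upstream chrII:14901150-14901250, plus strand: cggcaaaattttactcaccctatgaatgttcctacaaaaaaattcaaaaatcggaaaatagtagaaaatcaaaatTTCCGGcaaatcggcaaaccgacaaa
cog-1 last exon chrII:14906944-14907044, plus strand: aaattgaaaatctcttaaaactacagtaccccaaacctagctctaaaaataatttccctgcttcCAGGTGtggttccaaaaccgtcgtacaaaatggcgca
The E-box of the last-exon window spans bases 65 to 70 and the exon starts at base 68, so these letters also form the splice acceptor border of the gene.

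**Figure D2:**
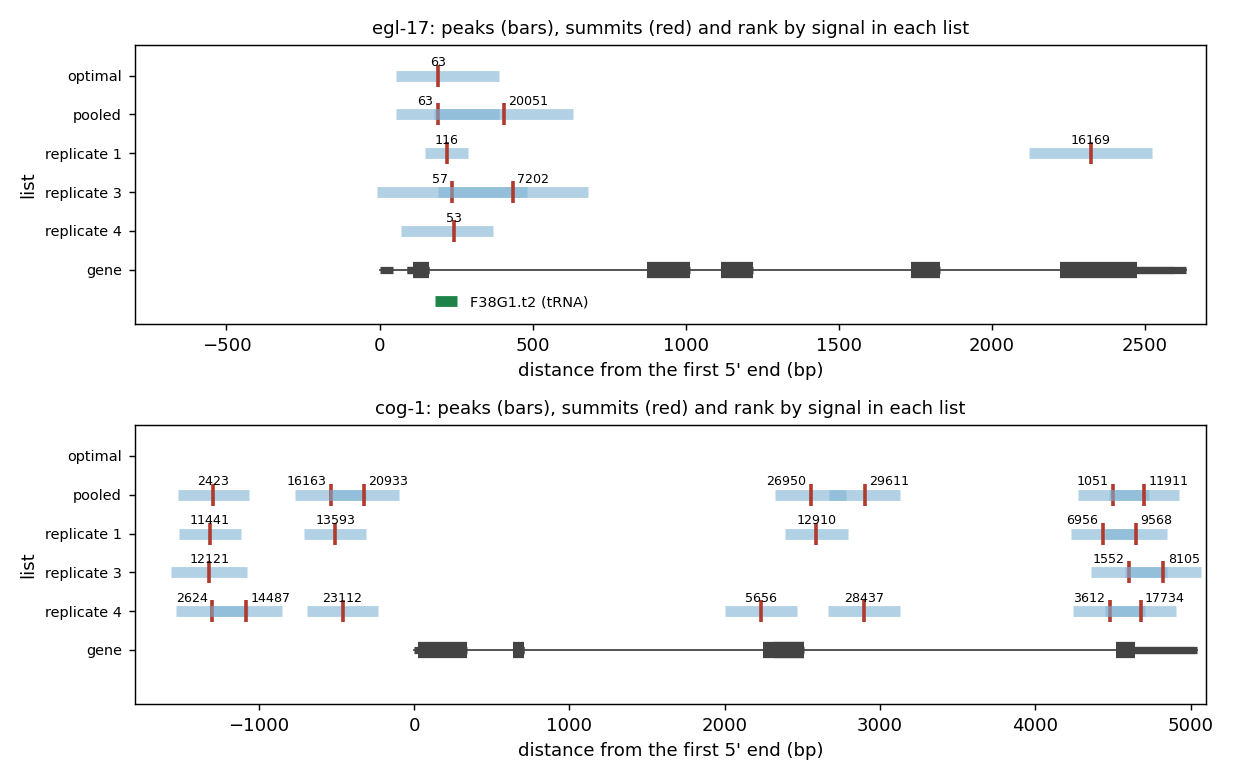
The x axes give the distance in bp from the first 5′ end of egl-17 (upper panel) and cog-1 (lower panel); pale bars are peaks, red ticks are summits and the numbers are ranks by signal within each list, above the exons (dark boxes) of the gene. At egl-17 all lists place their top peak over the tRNA gene F38G1.t2, and at cog-1 the replicate summits span 18 bp around the pooled summit 1293 bp upstream and 169 bp around the one at 4501 bp, with ranks between 1552 and 12121 in the replicates for these 2 summits.

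The LIM homeobox gene lin-11, required in the outer vulval lineages, lies at I 10248288 to 10255327 on the plus strand and had 4 pooled summits. Replicates 1, 3 and 4 had 2, 5 and 1. The strongest pooled summit, in an intron 4314 bp into the gene, had a signal of 55.0, rank 5691, and a match in replicate 3 alone, at rank 2754. Replicate 1 had an intronic peak at 4180 bp, rank 1304, and replicate 4 had its only peak at 4540 bp, rank 11650. These summits and that of replicate 3, at 4312 bp, lay in the same part of the gene but more than 100 bp apart.

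The Pax-type gene egl-38, which acts in vulval cells next to the uterus, is at IV 10106599 to 10110517 on the minus strand. Its single pooled summit, 2025 bp into the gene in an intron, had a signal of 47.8 and rank 8824, and was matched in replicate 4 at rank 15260. Peaks of replicates 1 and 3 lay at 2153 and 2181 bp, ranks 14380 and 3833, and matched each other but not the pooled summit.

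The nuclear receptor gene nhr-67, a tailless-type factor of the anchor cell and of vulval cells, is at IV 11169748 to 11174791 on the plus strand and had 2 pooled summits and the fewest replicate peaks. Replicate 1 had none, and replicates 3 and 4 had 1 each. The stronger pooled summit, 206 bp into the gene in an intron, had a signal of 52.7 and rank 6479 and was matched in replicate 4 at rank 2739. Replicate 3 had its only peak at 3553 bp upstream, rank 20880. The sequence within 50 bp of the pooled summit is given as the member summit closest inside a 5′ end away from small RNA genes that had a replicate match; it held none of the motifs searched.
nhr-67 chrIV:11169904-11170004, plus strand: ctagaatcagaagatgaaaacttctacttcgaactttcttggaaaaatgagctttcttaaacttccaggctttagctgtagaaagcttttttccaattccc

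**Figure D3:**
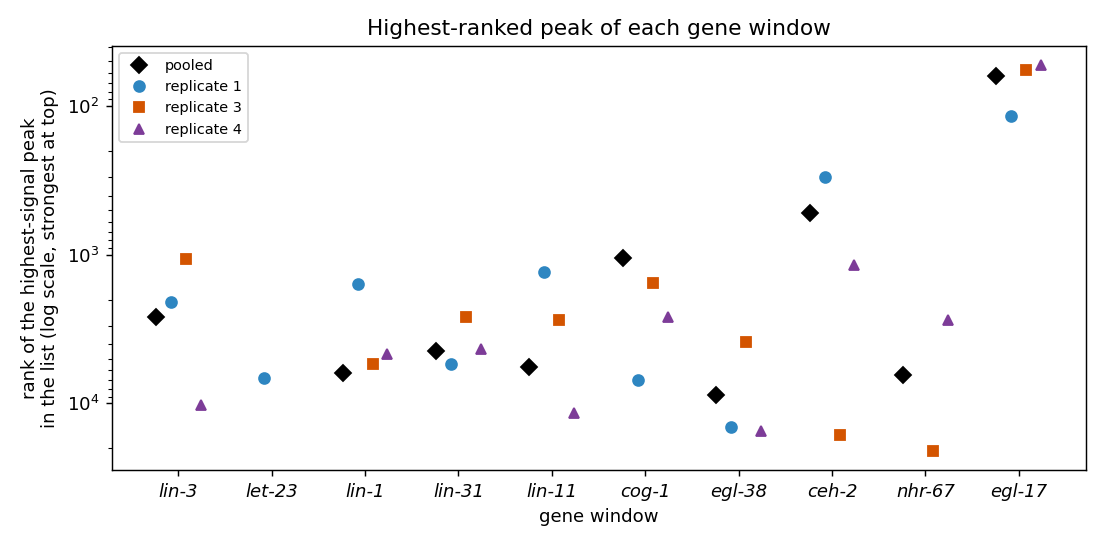
For each gene, the y axis gives the rank, on a log scale with the strongest at the top, of its highest-signal peak in the pooled list and in the lists of replicates 1, 3 and 4; a missing point means no peak. The egl-17 points stay between ranks 53 and 116, while those of ceh-2 lie between 299 and 16352 and those of lin-3 between 1069 and 10284.

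Ordered by the rank of the best pooled peak, the genes ran egl-17, ceh-2, cog-1, lin-3, lin-31, lin-11, lin-1, nhr-67 and egl-38, with let-23 unlisted. The steps from lin-31 to nhr-67 were small, between ranks 4453 and 6479. In that stretch the replicates did not hold 1 order: the highest-signal lin-11 peaks, at separate summits, ranked 1304, 2754 and 11650 in replicates 1, 3 and 4. Only egl-17 stayed at the head of the order in all replicates.

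Of the 46 pooled summits, 10 had no summit within 100 bp in any replicate, 22 had one in 1 replicate, 8 in 2 and 6 in all 3. The corresponding shares were 21.7, 47.8, 17.4 and 13.0% in the 10 windows and 18.8, 51.8, 24.1 and 5.30% over all nuclear pooled summits. The share found in all replicates has an exact Clopper-Pearson interval from 4.94 to 26.3%, which includes the nuclear share, treats neighbouring summits as separate and covers counting error only. Those 6 summits are at 4 of the 10 genes, as against 12.1% of all coding genes and 16.8% of those within the same range of window length. Counted without summits near small RNA genes, 4 of 42 summits and 2 of 10 genes were left, cog-1 and lin-3, beside 4.39% of summits and 10.1% of genes. In 4 of the 6, the replicate summits also lay within 100 bp of each other, against 72.7% of the 1589 nuclear pooled summits found in every replicate. Counted over all pooled summits, that is 4 of the 46, beside 3.85% of all nuclear pooled summits. With a match within 50 bp, 1 summit was left, the cog-1 summit 1293 bp upstream, beside 2.07% of nuclear summits and 5.05% of coding genes. Among the 5000 highest peaks of each replicate list, 1 was left, the egl-17 summit, beside 1.77% of nuclear summits and 4.81% of coding genes.

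**Figure D4:**
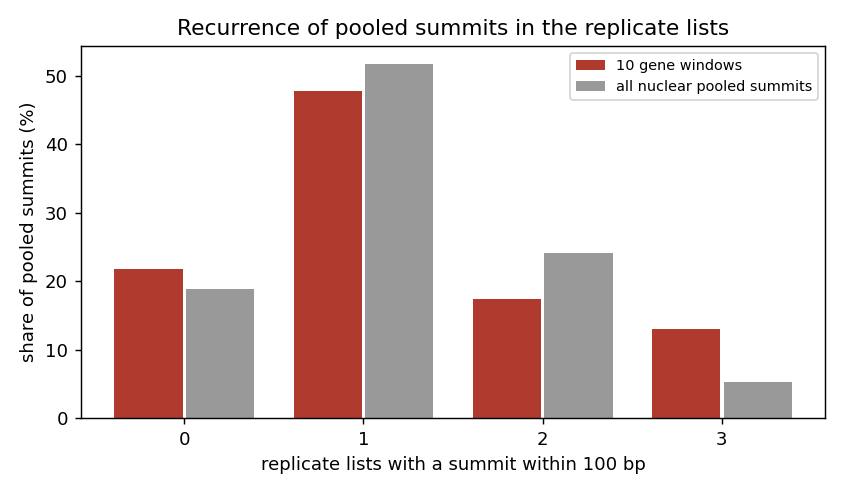
Bars give the percentage of pooled summits with a summit within 100 bp in 0, 1, 2 or 3 replicate lists, for the 46 summits of the 10 windows (red) and all nuclear pooled summits (grey). The share in 3 lists is 13.0% in the windows and 5.30% over the genome, and the most common class in both is a match in 1 list.

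The replicates were not equally represented among these matches. Pooled summits of the 10 windows were matched in replicate 1 for 28.3%, in replicate 3 for 47.8% and in replicate 4 for 45.7%, against 32.1, 31.8 and 51.9% over the genome. Compared directly, 10 of the 34 replicate 1 summits had a replicate 3 summit within 100 bp, or 29.4% against 14.8% over the genome. For replicate 1 summits in replicate 4, the shares were 23.5% in the windows and 18.2% over the genome. Summits of replicate 3 were matched in replicate 1 for 20.4%, against 13.2% over the genome, and in replicate 4 for 20.4%, against 16.6%. Summits of replicate 4 were matched in replicate 1 for 21.1%, against 15.9%, and in replicate 3 for 26.3%, against 16.3%. Signals were also compared over the pooled summits of the windows that had a match in both replicates of a pair, which are fewer than the direct matches between replicates 1 and 3. Spearman's rho was 0.04 between replicates 1 and 3 (n = 8 pooled summits), 0.74 between replicates 1 and 4 (n = 8) and 0.21 between replicates 3 and 4 (n = 10), against 0.42, 0.40 and 0.37 over the genome. These points share genes and neighbouring positions, and the cog-1 summits at 4501 and 4700 bp share 1 replicate 3 peak, so the values are given as descriptions. Among the 8 summits matched in replicates 1 and 4, those on tRNA genes at egl-17 and ceh-2 had the highest signals in both lists.

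By position, 23 of the 46 summits were in introns, 18 upstream, 3 in 3′ UTRs, 1 in a coding exon and 1 in a 5′ UTR. The nearest annotated 5′ end belonged to another gene for 23 summits, and 9 lay inside another gene. The assignment of a summit to a window therefore does not single out a gene, as at lin-3 and ttr-16, lin-1 and mksr-2, and lin-31 and dos-2.

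The 101-base sequences centred on the 46 summits had a GC content of 35.5 ± 7.94% (SD over 46 windows), against 37.9 ± 9.88% over all nuclear pooled summits. In 40 of 46, or 87.0%, every 32-base word was unique in the genome, against 86.2% over all. A set of 6 motifs was searched on both strands. The E-box CACCTG was in 4 windows, 8.70% against 2.47% of all, at lin-11 4515 bp, cog-1 4501 bp, ceh-2 1383 bp and the ceh-2 summit 782 bp upstream. The Ets core CCGGAA, which reads TTCCGG on the other strand, was in 3 windows, at lin-1 4930 and 2197 bp and at cog-1 1293 bp upstream, 6.52% against 6.56%, and the GATA motif AGATAA in 2 windows, 4.35% against 4.86%. No window held the TCF motif CTTTGAT, the homeobox core TAATTA or GCGCGC, which occur in 1.28, 4.75 and 1.87% of all nuclear windows. Each of these counts is of 4 windows or fewer, and a motif match is a run of letters and not a shown site.

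The longest stretch that summit windows of different members had in common was GGCAAACCGGCAATTTG, at the strongest lin-1 summit and at a weak cog-1 summit 2902 bp into the gene. It has 455 copies in the genome and was in 0.133% of nuclear windows, so it is a repeated element. The lin-1 window is printed because it carries that stretch, near its start, under the highest lin-1 signal.
lin-1 chrIV:2283817-2283917, plus strand: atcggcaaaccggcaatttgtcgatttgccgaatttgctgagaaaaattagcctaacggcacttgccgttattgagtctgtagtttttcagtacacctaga

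A list of 35 further genes of the same pathways gives the setting for these 10. None of the 35 had an optimal summit, 32 had a pooled summit, and 5 had one found in every replicate: sos-1, let-60, mek-2, apx-1 and lin-17. The shares over all coding genes were 5.01, 70.3 and 12.1%, so the last count is near its background. Together they held 173 pooled summits, or 0.379 per kb, close to the 0.367 per kb of the 10. Of the 173, 6 were found in every replicate, beside 6 of the 46 and 5.30% of all nuclear pooled summits. The 6 in the 10 windows include the tRNA-gene summits of egl-17 and ceh-2 and the cog-1 pair that shares 1 replicate 3 peak. By group, all 18 genes of the EGF receptor and Ras pathway had pooled summits and 3 had a repeated one. Of 5 Notch pathway genes the counts were 4 and 1, of 6 Wnt genes 6 and 1, and of 6 vulval regulators and terminal genes 4 and 0. The genes without a pooled summit were the Notch receptor gene lin-12, the cadherin gene cdh-3 and bed-3 itself, which had no summit in any list.

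The highest pooled signals of that list, apart from that of dsl-1, lay between the best of cog-1, 92.3, and the best of ceh-2, 133. The Frizzled-type receptor gene lin-17 had an intronic summit 3825 bp into the gene with a signal of 111, rank 694, matched at ranks 614 and 884 in replicates 1 and 4. The lin-7 window, whose gene acts in placing LET-23 in the membrane, had a signal of 107, rank 763, at 250 bp upstream, with elof-1 as the nearest 5′ end, matched at ranks 9707 and 499 in replicates 1 and 4. The Ras gene let-60 had a signal of 101, rank 866, at 1435 bp upstream, within ZK792.10, and this summit was matched in all 3 replicates, at ranks 2138, 13331 and 1342 in replicates 1, 3 and 4. The egl-26 window had a signal of 101, rank 862, at 3150 bp upstream, matched at rank 525 in replicate 4 alone. The summit 1840 bp upstream of dsl-1, a Notch ligand gene, had a signal of 81.4, rank 1556, and matches at ranks 11322 and 1724 in replicates 3 and 4. The best pooled signals of lin-3, lin-1 and lin-31 were below all of these, at most 69.1, and let-23 had none.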

How the data were processed

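ChIP-seq with an anti-GFP antibody was run on 3 biological replicates. The authors deposited peak lists in ce11 coordinates, in which each peak has a summit and a signal value, the signal of the authors' peak caller; the sources used here name neither caller nor aligner. IDR inputs, per the labels, were the pooled list and those of replicates 3 and 4, from which the optimal list derives; replicate 1 has its own list. Signal was used only to rank peaks within a list. Summits were assigned to gene windows of Ensembl release 115, tRNA products were named from RefSeq, and a match was a summit within 100 bp. Shares over all coding genes and all nuclear summits were computed by the same rules. Sequence, exact copies and 32-base words came from the RefSeq WBcel235 genome. Matching and window assignment were tested on simulated data. The work used Python 3.11.15, numpy 2.4.6, pandas 2.3.3, scipy 1.17.1 and matplotlib 3.10.9. Genes, the list of 35 others and the motifs were chosen with earlier results of these data known. For every member, optimal peaks, its highest pooled peak and up to 3 pooled peaks found in every replicate were described; other peaks named were chosen after their values were seen. Depth per library is unknown, and the interval covers counting error only.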

Additional observations from a re-analysis of the deposited data

How the results depend on the processing

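No test was planned, since there is 1 group and no contrast. The count of 46 pooled summits was 28 with no upstream reach, 23 with summits nearest to the gene's own 5′ end and 18 above the median signal of the list. The 6 summits found in every replicate became 1 with the 5000 highest peaks of each replicate list, with a 50 bp match, or with own nearest 5′ ends, 3 above the median signal (5.91% of nuclear summits), and 15 where peak intervals only had to overlap, a rule that 23.0% of nuclear summits met. Leaving out 1 replicate in turn gave 8 to 10, while the nuclear share became 10.2 to 15.0%, against 5.30% with all 3 required. The 4 genes with such a summit became 1, 1 and 1 under the first 3 of those settings (4.81, 5.05 and 3.98% of coding genes), 2 above the median signal (7.57%), 2 without summits near small RNA genes and 8 with overlap (28.8% of coding genes). The 2 genes with an optimal summit, beside 5.01% of coding genes, became 1 with no upstream reach (0.966%) and 1 above the median signal (2.47%). They became 0 with own nearest 5′ ends (1.08%) and 0 without summits near small RNA genes (3.21%). Counting overlapping pooled peaks once, an alternative chosen after seeing the data, gave 33 summits, 4 found in every replicate (5.85% of nuclear summits), at 3 genes (11.6% of coding genes). Only egl-17 kept such a summit among the 5000 highest peaks, and only cog-1 at 50 bp and with own nearest 5′ ends. Depth was not in the peak lists, so weak and missing peaks cannot be set against sequencing depth.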
